A study of Mus musculus with 8 samples.

Results

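The genes described here encode sensors of RNA and DNA in the cytosol, the adaptors and kinase that carry their signal, and an editor and a nuclease that limit their ligands. They were chosen by symbol: Ddx58, Ifih1, Dhx58, Zbp1, Eif2ak2, Mavs, Sting1, Tbk1, Trex1 and Adar. All 10 symbols had a row among the 12211 genes of the count table, and all 10 passed the filter on low counts, as did 11909 genes in all. RNA was sequenced from fibroblasts of mouse embryos, cultured in medium with serum and antibiotics. The wild-type genotype (control) and the PUS10 knockout (PUS10KO) each had 4 libraries, which carry numbers from 1 to 4. The PUS10 protein isomerises uridine in RNA to pseudouridine, and the series title ties it to tRNA fragments and to inflammation driven by retrotransposons. The labels give neither the allele nor the sex or number of embryos, nor whether a genotype is 1 line or several, so the spread behind the p-values is that of these libraries alone and may be technical.

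RIG-I-like receptors are helicases that bind double-stranded RNA or unusual RNA ends in the cytosol. RIG-I and MDA5 pass the signal to MAVS on mitochondria, while STING on the endoplasmic reticulum answers a cyclic dinucleotide made by the DNA sensor cGAS. Both adaptors engage the kinase TBK1, which activates transcription factors that induce type I interferon. Interferon in turn raises the transcripts of several of the sensors themselves.

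Total counts ran from 17561114 to 24563499 per library. Pus10 fell from 46.1 ± 6.46 to 13.8 ± 1.60 CPM (counts per 1e6 counts of the library, with totals scaled by the TMM method; mean ± SD, n = 4 per genotype; log2 fold change -1.74, edgeR adjusted p = 0.000189). The Y-linked genes Uty, Kdm5d and Eif2s3y had 3 counts together over the control libraries and 15173 over the PUS10KO libraries, so sex chromosome content and genotype cannot be told apart in any comparison here. All 14 fibroblast markers examined had a row. Of them 5 fell (Col1a2, Pdgfrb, Vim, Fap and Thy1), 0 rose and 9 did not pass. Among all genes tested 7.11% fell and 5.9% rose (edgeR). The markers had a median log2 fold change of -0.37. At an unadjusted p under 0.05 edgeR gave 1 higher and 5 lower markers. The summed level of the 14 did not overlap between genotypes (18836 to 23848 CPM in control, 11994 to 18148 CPM in PUS10KO). Thy1, a surface marker, was near 0 in PUS10KO (0.024 ± 0.028 CPM, against 21.8 ± 0.92 CPM in control). The receptor gene Pdgfra was higher in PUS10KO by its mean (49.8 ± 20.7 against 101 ± 21.1 CPM, edgeR adjusted p = 0.0605, or 0.00247 with the replicate block). Of 15 leucocyte and macrophage markers 5 had a row, with a summed level of 7.83 to 13.3 CPM in control and 14.1 to 20.5 CPM in PUS10KO. Cd14, which rose from 3.09 ± 0.86 to 12.8 ± 3.37 CPM (edgeR adjusted p = 0.0019), was the only one of the 5 to pass the test. Lyz2 went from 2.94 ± 1.04 to 1.19 ± 0.82 CPM (edgeR adjusted p = 0.157, or 0.0108 with the replicate block). Cd68 and Csf1r also had lower means in PUS10KO, and Cd74 had a higher one. The median log2 fold change of the 5 was -0.34. The defining leucocyte marker Ptprc and the macrophage marker Adgre1 are not analysed here. Of 8 endothelial markers 3 had a row (summed 8.59 to 14.7 CPM in control and 7.84 to 10.9 CPM in PUS10KO), and of 8 epithelial markers 1, Krt19, which fell from 120.0 ± 68.2 to 16.3 ± 4.22 CPM (edgeR adjusted p = 0.00169). The part of these cells in the results below was not tested. In bulk samples fewer cells of a type and less RNA per cell cannot be told apart.

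Of the 10 genes, 4 rose in PUS10KO, 0 fell and 6 were not called (edgeR's quasi-likelihood test, Benjamini-Hochberg adjusted p under 0.05 over all 11909 genes). Among all genes tested 5.9% rose and 7.11% fell. The genes that rose were the RNA sensor genes Ddx58 and Dhx58, the Z-form nucleic acid sensor gene Zbp1 and the adaptor gene Sting1. The median log2 fold change of the 10 genes was 0.90, beside 0.01 over all genes tested. By DESeq2 6 of the 10 rose, where 9.09% of all genes did, and by limma voom 3, where 6.01% of all genes did. As lower, edgeR, DESeq2 and limma voom called none of the 10, where DESeq2 called 10.3% and voom 6.93% of all genes. At an unadjusted p under 0.05 edgeR gave 7 higher and 0 lower. The share of all genes at that unadjusted cut is not given here, nor for the lists. All 4 genes that rose did so by at least 2-fold, as did 4.2% of all genes tested.

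Libraries with the same number deviated together from their genotype's mean and were taken as pairs, so the genes are also given with the number as a block. With that block 8 of the 10 genes rose and 2, Mavs and Tbk1, did not pass, where 19.1% of all genes tested rose, 19.9% fell and 39% passed in either direction. In 9 of the 10 genes the PUS10KO library was higher than the control library in all 4 pairs, as it was for 28.4% of all genes tested. For 4 genes, Ddx58, Ifih1, Sting1 and Zbp1, the lowest PUS10KO library was above the highest control library, against 9.7% of all genes tested.

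**Figure D1:**
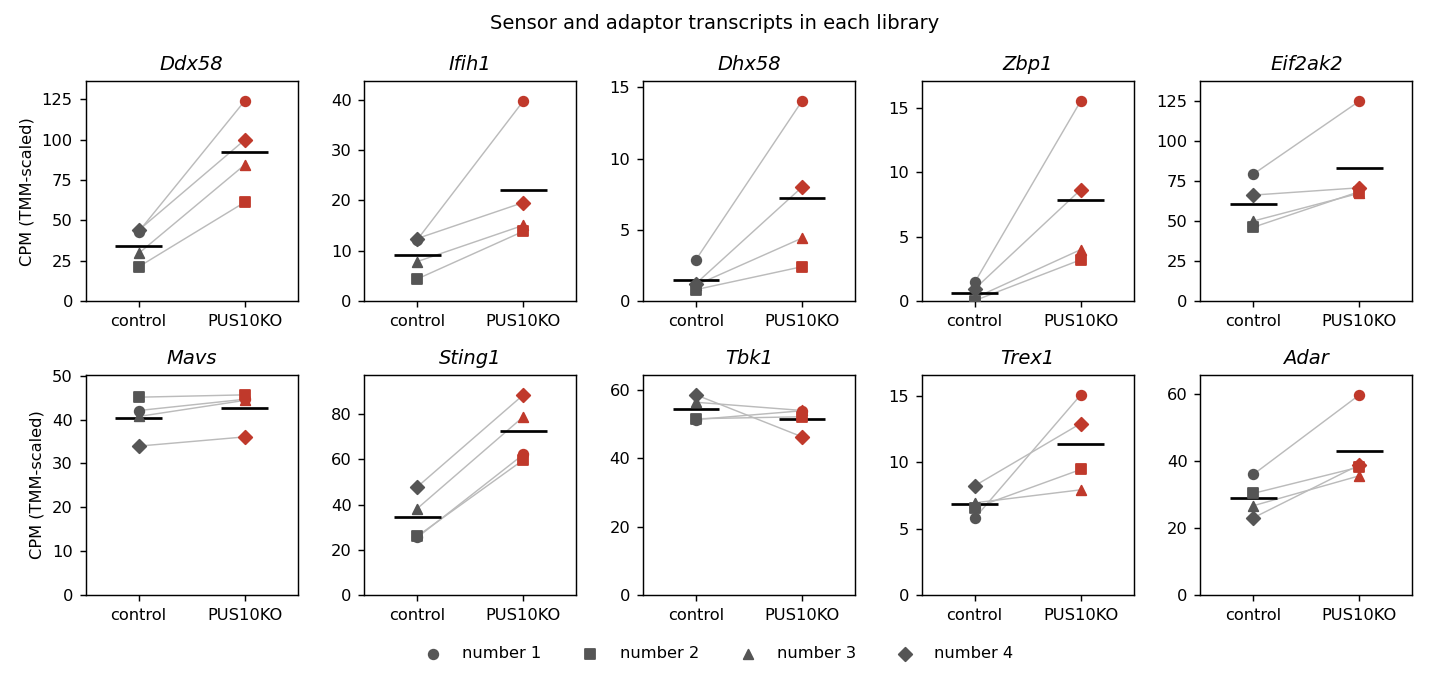
Level of each gene in each library, in CPM on TMM-scaled library totals, for control (grey) and PUS10KO (red). Marker shapes give the library number, grey lines join libraries of 1 number, and black bars are means of 4 libraries. For Ddx58, Ifih1, Zbp1 and Sting1 all 4 PUS10KO libraries lie above all 4 control libraries, and for Mavs and Tbk1 the genotypes overlap.

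Promoter windows from RefSeq (GRCm38.p6), 250 bases before to 50 bases after a gene start, were matched for 7 of the 10 genes, those other than Dhx58, Sting1 and Zbp1. They were searched on both strands for the core of the interferon-stimulated response element (GAAA, any 2 bases, GAAA). It was found in the windows of 3 of these 7 genes, Ddx58, Ifih1 and Eif2ak2, and in those of 3.99% of all 27025 genes (3.44% of 32851 windows). The 3 matched sites are shown so that their letters and positions can be compared. Across the 8 libraries Pearson's r of log2 CPM was 0.946 between Ddx58 and Ifih1. It was 0.930 between Ifih1 and Eif2ak2 and 0.807 between Ddx58 and Eif2ak2, all genes with a match. Between Ddx58 and the genes without a match it was 0.825 (Trex1), 0.739 (Adar), -0.02 (Mavs) and -0.29 (Tbk1). A relation between match and profile was not tested. Each site is given 5′ to 3′ on the strand of the gene, 30 bases long, with the match in capitals. The windows of Mavs, Tbk1, Trex1 and Adar held no match, which says only that these letters are not in them, and a match is no evidence of binding.
Ddx58, chr4:40239804-40239833, minus strand, response element core on the opposite strand at bases 3 to 12 after the start: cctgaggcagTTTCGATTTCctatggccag
Ifih1, chr2:62646206-62646235, minus strand, response element core at bases 33 to 42: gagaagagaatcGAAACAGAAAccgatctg
Eif2ak2, chr17:78882535-78882564, minus strand, response element core at bases 19 to 28: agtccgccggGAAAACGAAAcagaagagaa
All 3 response element cores lay within the 50 bases after the annotated start.

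Ddx58 encodes RIG-I, a helicase that detects RNA with a 5′ triphosphate. It lies on chromosome 4 (ENSMUSG00000040296.15, chr4:40203773-40239828, minus strand, GRCm38). Its level was 43.0, 21.3, 29.6 and 43.9 CPM across controls 1 to 4, against 124, 61.2, 84.3 and 99.7 CPM across the knockout libraries in the same order. The genotypes did not overlap, and library 2 was the lowest of both. Its estimated log2 fold change was 1.42 (SE 0.28, 95% interval 0.78 to 2.06, adjusted p = 0.0115, edgeR), or 2.68-fold. Leaving out each of the 8 libraries in turn kept the call (adjusted p up to 0.0396), and within pairs the log2 difference ran from 1.18 to 1.53.

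Ifih1 encodes MDA5, which binds long double-stranded RNA (ENSMUSG00000026896.14, chr2:62595798-62646255, minus strand, GRCm38). It had 12.2, 4.43, 7.88 and 12.4 CPM in the controls (number 1 first) and 39.7, 13.9, 15.1 and 19.6 CPM in the knockouts. All PUS10KO libraries were above all control libraries, although PUS10KO 2 exceeded control 4 by little. PUS10KO over control gave a log2 fold change of 1.25 (SE 0.42, 95% interval 0.30 to 2.21), and it did not pass edgeR's test (adjusted p = 0.0911). Without PUS10KO 1, its highest library, it was 0.80 (edgeR adjusted p = 0.197). With the replicate block it passed (log2 fold change 1.23, adjusted p = 0.00155), and DESeq2 called it as well (adjusted p = 0.0224). The within-pair log2 difference was 1.70 and 1.64 for numbers 1 and 2, and 0.93 and 0.65 for numbers 3 and 4.

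Dhx58 encodes LGP2, a receptor of the same family that lacks the signalling domains and modulates the other members (ENSMUSG00000017830.15, chr11:100694884-100704271, minus strand, GRCm38). Its counts were low, with 60, 15, 22 and 26 across controls 1 to 4, against 255, 61, 105 and 148 across the knockout libraries in the same order. These are 2.92, 0.82, 1.13 and 1.24 CPM in control and 14.0, 2.43, 4.43 and 8.01 CPM in PUS10KO. The genotypes overlapped, because control 1 was above PUS10KO 2. In PUS10KO over control this was a log2 fold change of 2.23 (SE 0.60, 95% interval 0.87 to 3.58, edgeR adjusted p = 0.0407). The call was kept without control 1 or PUS10KO 2 and lost without any other single library (adjusted p up to 0.105), and limma voom did not make it (adjusted p = 0.0863). In the block fit edgeR's adjusted p was 0.00014. An antisense gene, Dhx58os, covers 4.31% of the exon bases of Dhx58, and the counting is not stated to use strand.

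Zbp1 encodes a sensor of Z-form RNA and DNA that can start necroptosis (ENSMUSG00000027514.14, chr2:173206612-173218923, minus strand, GRCm38). It had 30, 1, 5 and 20 counts in the controls (number 1 first) and 282, 81, 95 and 160 counts in the knockouts. In CPM this was 1.46, 0.055, 0.26 and 0.96 in control and 15.5, 3.22, 4.01 and 8.66 in PUS10KO. The genotypes did not overlap, and both had their highest value in library 1 and their lowest in library 2. Its estimated log2 fold change was 3.49 (SE 0.81, 95% interval 1.65 to 5.33, edgeR adjusted p = 0.0231), the highest of the 10 genes. The call was lost without control 3 (adjusted p = 0.0641) or PUS10KO 1 (adjusted p = 0.0506). In the block fit edgeR's adjusted p was 4.41e-05.

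Eif2ak2 encodes PKR, a kinase that binds double-stranded RNA and phosphorylates the translation factor eIF2alpha (ENSMUSG00000024079.4, chr17:78852564-78882573, minus strand, GRCm38). It had 79.2, 46.1, 49.97 and 66.1 CPM across controls 1 to 4, against 125, 68.3, 67.3 and 70.7 CPM across the knockout libraries in the same order. PUS10KO 1 stood apart from the other PUS10KO libraries, which were below control 1. PUS10KO over control gave a log2 fold change of 0.45 (SE 0.25, 95% interval -0.12 to 1.03, edgeR adjusted p = 0.299). With the replicate block the gene passed (log2 fold change 0.44, edgeR adjusted p = 0.0123).

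**Figure D2:**
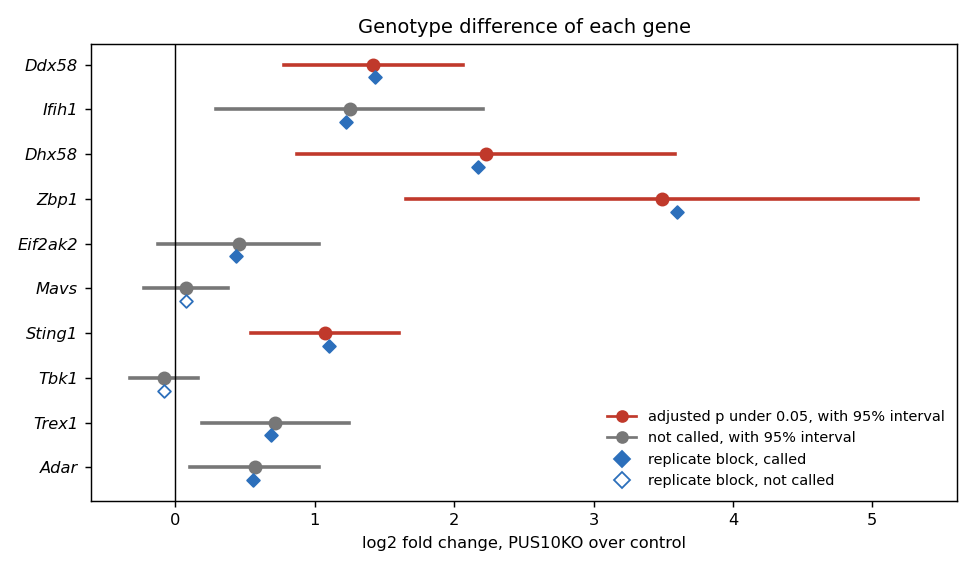
Log2 fold change of PUS10KO over control for each gene. Circles and bars are edgeR estimates with 95% intervals without the replicate block (red, adjusted p under 0.05), and diamonds are estimates with the block (filled, called). Zbp1 (3.49) and Dhx58 (2.23) lie farthest to the right, and Mavs (0.08) and Tbk1 (-0.08) lie at 0 in both fits.

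Among the adaptors and the kinase, Sting1 rose and the other two did not pass the test. Sting1 encodes STING (annotated as Tmem173, ENSMUSG00000024349.10, on chromosome 18, 35733679 to 35740554, minus strand, GRCm38). It had 25.5, 26.0, 38.3 and 47.8 CPM in the controls (number 1 first) and 62.2, 59.8, 78.9 and 88.5 CPM in the knockouts. The genotypes did not overlap, and in both of them libraries 3 and 4 were above libraries 1 and 2. In PUS10KO over control this was a log2 fold change of 1.07 (SE 0.23, 95% interval 0.54 to 1.60, edgeR adjusted p = 0.0175), or 2.10-fold. The call was lost without PUS10KO 3 (adjusted p = 0.0504), and the within-pair log2 difference ran from 0.89 to 1.29.

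Mavs encodes the mitochondrial adaptor of RIG-I and MDA5 (ENSMUSG00000037523.13, chr2:131234063-131248025, plus strand, GRCm38). It had 42.1, 45.1, 40.7 and 33.9 CPM across controls 1 to 4, against 44.6, 45.6, 44.4 and 36.0 CPM across the knockout libraries in the same order. Library 4 was the lowest in both genotypes. Its estimated log2 fold change was 0.08 (SE 0.13, edgeR adjusted p = 0.762), and its 95% interval ran from -0.22 to 0.38, or 0.86-fold to 1.30-fold. In the block fit, too, it did not pass (edgeR adjusted p = 0.453).

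Tbk1 encodes the kinase on which both adaptors converge (ENSMUSG00000020115.3, chr10:121546455-121586787, minus strand, GRCm38). It had 51.3, 51.5, 56.3 and 58.5 CPM in the controls (number 1 first) and 53.8, 52.1, 53.9 and 46.2 CPM in the knockouts. The highest library was only 1.14 times the lowest within control and 1.17 times within PUS10KO. PUS10KO over control gave a log2 fold change of -0.08 (SE 0.11, 95% interval -0.32 to 0.17, edgeR adjusted p = 0.702; 0.532 with the replicate block).

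The genes that limit endogenous ligands had higher means in PUS10KO but did not pass the test without the block. Adar encodes ADAR1, which deaminates adenosine in double-stranded RNA and so keeps cellular RNA from being sensed (ENSMUSG00000027951.16, chr3:89715022-89753446, plus strand, GRCm38). It had 36.0, 30.3, 26.6 and 23.0 CPM across controls 1 to 4, against 59.7, 38.1, 35.5 and 38.8 CPM across the knockout libraries in the same order. Control 1 was above PUS10KO 3, so the genotypes overlapped. In PUS10KO over control this was a log2 fold change of 0.57 (SE 0.21, 95% interval 0.11 to 1.03, edgeR adjusted p = 0.113; 0.00357 with the replicate block). Chrnb2, on the opposite strand, covers 16.8% of the exon bases of Adar and is not analysed here. The table counts genes, so the interferon-inducible and constitutive forms of ADAR1 cannot be told apart.

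Trex1 encodes the main cytosolic DNA exonuclease of mammalian cells (ENSMUSG00000049734.9, chr9:109057933-109059734, minus strand, GRCm38). It had 5.79, 6.57, 6.95 and 8.24 CPM in the controls (number 1 first) and 15.1, 9.47, 7.94 and 12.9 CPM in the knockouts. PUS10KO 3 was below control 4, so the genotypes overlapped. Its estimated log2 fold change was 0.72 (SE 0.23, 95% interval 0.19 to 1.25, edgeR adjusted p = 0.0812; 0.0223 with the replicate block, and 0.0277 by DESeq2). All exon bases of Trex1 also lie in exons of Atrip on the same strand, so these counts are uncertain, because reads of the 2 genes could be split between them. Atrip, a checkpoint gene, had 25.8 ± 3.15 CPM in control and 23.6 ± 3.94 CPM in PUS10KO (log2 fold change -0.13, edgeR adjusted p = 0.666).

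Levels of different genes were compared per kilobase of annotated exon. In control the highest means were those of Tbk1 (13.9 ± 0.92 CPM per kilobase), Sting1 (12.6 ± 3.91), Mavs (12.1 ± 1.41) and Eif2ak2 (11.8 ± 2.98), whose ranges over libraries overlapped. The lowest Eif2ak2 library (9.02) was above the highest Trex1 library (7.18). Trex1 (6.005 ± 0.89 CPM per kilobase), Ddx58 (4.88 ± 1.55) and Adar (3.57 ± 0.68) followed, and each overlapped its neighbour among these 3. The place of Trex1 is uncertain, because all its exon bases also lie in exons of Atrip. Ifih1 (1.13 ± 0.47 CPM per kilobase), Dhx58 (0.47 ± 0.29) and Zbp1 (0.19 ± 0.18) were lowest, and the highest Ifih1 library (1.52) was below the lowest Adar library (2.84). In PUS10KO Sting1 was highest, with 26.4 ± 5.01 CPM per kilobase, and its range overlapped that of Eif2ak2 (16.2 ± 5.47). Ddx58, at 13.1 ± 3.73 CPM per kilobase, stood among Tbk1 (13.2 ± 0.93) and Mavs (12.8 ± 1.33). Zbp1 and Dhx58, at 2.23 ± 1.60 and 2.21 ± 1.56 CPM per kilobase, were again the lowest by their means, with ranges that overlapped that of Ifih1 (2.702 ± 1.47).

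**Figure D3:**
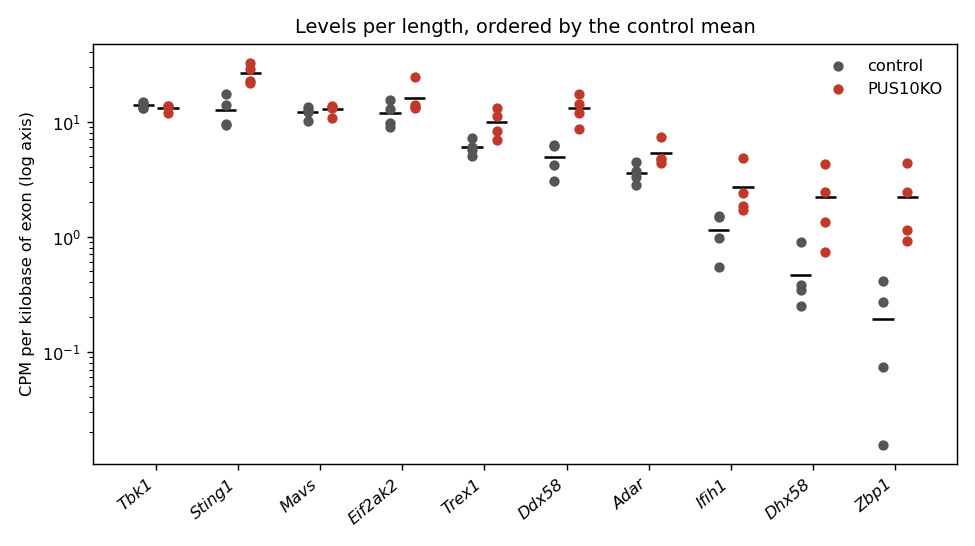
CPM per kilobase of exon (log axis) for each gene, ordered by the control mean. Points are libraries (grey, control; red, PUS10KO) and bars are means of 4. In control the genes span from 13.9 (Tbk1) to 0.19 (Zbp1) CPM per kilobase. The level of Trex1 is uncertain, because all its exon bases also lie in exons of Atrip.

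The genes also differed between library numbers. A joint test of the number coefficients, in the edgeR fit with genotype and number, called 7 of the 10 genes, where 42.4% of all genes tested were called. With DESeq2 size factors (42.6% of all genes) or no filter (41.8%) the count was 7 as well. The called genes were Ddx58, Ifih1, Dhx58, Zbp1, Eif2ak2, Sting1 and Adar, and the others were Mavs, Tbk1 and Trex1 (adjusted p = 0.0815, 0.917 and 0.377). Averaged over both genotypes, the range of the number means was 3.22 on the log2 scale for Zbp1, 2.16 for Dhx58, 1.49 for Ifih1 and 1.01 for Ddx58, beside a median of 0.57 over all genes tested. These 4 genes were highest in number 1, next in number 4, then 3, and lowest in number 2. Eif2ak2 had the same order over a range of 0.82, with numbers 3 and 2 close (mean log2 CPM 5.86 and 5.81). Sting1 had another order, with 4 highest, 3 next, and 1 and 2 almost level (range 0.72). Tbk1 spanned 0.09.

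**Figure D4:**
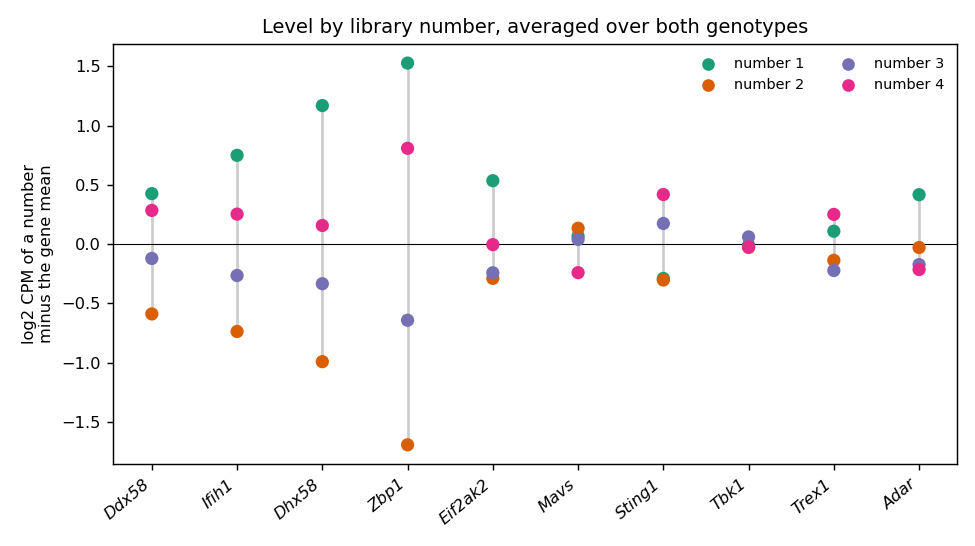
Mean log2 CPM of the 2 libraries of each number, minus the mean of the gene over the numbers. Zbp1, Dhx58, Ifih1, Ddx58 and Eif2ak2 share the order 1, 4, 3, 2 from high to low, and Tbk1 spans 0.09.

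As a description, with libraries that share genotype and number, the profiles of some of these genes ran together over the 8 libraries. Pearson's r of log2 CPM was 0.984 between Ddx58 and Zbp1, 0.946 between Ddx58 and Ifih1 and 0.945 between Ddx58 and Dhx58. For deviations from the genotype means, r was 0.953, 0.941 and 0.855 for the same pairs. Between Mavs and Ddx58 r was -0.02, and between Tbk1 and Ddx58 it was -0.29. The closest genes below were picked as the highest r among all genes tested, over only 8 libraries. How high such an r would be by chance was not tested, and it was 0.906 even for Tbk1. Among all other genes tested the profile most like that of Ddx58 was that of Iigp1, an interferon-inducible GTPase gene (r = 0.993), followed by Gm4951 (0.990). Irf9, a gene of the interferon regulatory factor family, was among the closest to Ifih1 (0.978), and the interferon-inducible genes Sp100 (0.989) and Gm4951 (0.989) to Zbp1. Dhx58 was closest to Map1lc3a (0.988) and Ifit1 (0.982), Sting1 to Psd4 (0.996) and Cyp7b1 (0.996), Eif2ak2 to Stc2 (0.980) and Swap70 (0.976), and Adar to Dhrs13 (0.985) and Ogfr (0.974). The closest genes had lower r for Trex1 (Xylt2, 0.955, and Cog1, 0.946), Mavs (Atp5g3, 0.942, and Mybl1, 0.940) and Tbk1 (Zfp454, 0.906, and Zfp882, 0.905). When only deviations from the genotype means were used, the closest gene was Parp9 for Ddx58 (0.991), Igfbp4 for Ifih1 (0.985), Npepl1 for Dhx58 (0.980), Rep15 for Zbp1 (0.996), Igsf10 for Sting1 (0.997), Stc2 for Eif2ak2 (0.993), Optc for Adar (0.991), Cog8 for Trex1 (0.976), Jade1 for Mavs (0.996) and Dnajc12 for Tbk1 (0.940).

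Around the sensors, 27 partners of RNA sensing were tested, ubiquitin ligases and regulators of RIG-I and MDA5 signalling. None rose, 2 fell and 25 did not pass (edgeR). Of all genes tested 5.9% rose, 7.11% fell and 13% passed in either direction. The list median log2 fold change was 0.10. At an unadjusted p under 0.05 edgeR gave 3 higher and 7 lower genes. DESeq2 called 2 as higher and 6 as lower (all genes, 9.09% and 10.3%). Limma voom called 0 as higher and 2 as lower (all genes, 6.01% and 6.93%). Nlrx1 encodes a mitochondrial protein reported to restrain MAVS, and it fell from 62, 60, 80 and 94 counts in the controls, by number, to 1, 1, 2 and 1 counts in the knockouts. In CPM it fell from 3.73 ± 0.70 to 0.058 ± 0.019 (log2 fold change -5.86, edgeR adjusted p = 3.93e-05), and it was called whichever library was left out. The RNA helicase gene Ddx1 fell from 292 ± 21.4 to 208 ± 25.1 CPM (edgeR adjusted p = 0.0324), a call kept in 1 of 8 such fits, that without PUS10KO 2 (adjusted p up to 0.103). By edgeR with the replicate block 7 of the 27 rose and 7 fell (all genes, 19.1% and 19.9%), with 0.00402 as the adjusted p of Ddx1.

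In the DNA sensing list 3 of 25 tested genes rose and 1 fell (edgeR; all genes, 5.9% and 7.11%), and 21 did not pass. The list median log2 fold change was 0.11. The genes that rose belong to the cluster of interferon-inducible nucleic acid-binding proteins: Ifi203 (1.56 ± 0.66 to 13.7 ± 4.61 CPM, edgeR adjusted p = 0.000898), Mndal (3.58 ± 1.14 to 17.9 ± 11.7 CPM, adjusted p = 0.00921) and Ifi204 (8.51 ± 3.23 to 29.2 ± 20.3 CPM, adjusted p = 0.0452). Their copies are closely related, so their counts are uncertain. Enpp1, which hydrolyses the cyclic dinucleotide that activates STING, fell from 68.0 ± 30.7 to 24.9 ± 8.36 CPM (log2 fold change -1.45, edgeR adjusted p = 0.0284). With 1 library left out at a time, Ifi203 and Mndal were called in 8 of 8 fits. Enpp1 was called in 3 of them, those that left out control 2, PUS10KO 1 or PUS10KO 4, and its adjusted p reached 0.0832. Ifi204 was called in 1, that without PUS10KO 3 (up to 0.112). Cgas, the DNA sensor upstream of STING, had 15.2 ± 5.95 CPM in control and 16.4 ± 5.55 CPM in PUS10KO (log2 fold change 0.11, 95% interval -0.64 to 0.86). It was named after its values were seen. By edgeR with the block 6 of the 25 rose and 4 fell (all genes, 19.1% and 19.9%).

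Downstream of the adaptors 3 of 27 tested genes rose and 1 fell (edgeR; all genes, 5.9% and 7.11%), and 23 did not pass. The list median log2 fold change was 0.03. Tbkbp1, an adaptor of TBK1, rose from 2.88 ± 0.75 to 9.40 ± 2.01 CPM (log2 fold change 1.70, edgeR adjusted p = 0.00354). Nlrc5 had a log2 fold change of 3.40, and Irf5, a transcription factor of the interferon regulatory family, rose from 8.70 ± 1.22 to 15.8 ± 4.07 CPM (adjusted p = 0.03, edgeR). Tab2, a subunit of the TAK1 kinase complex, fell from 79.5 ± 9.22 to 46.0 ± 2.77 CPM (log2 fold change -0.79, edgeR adjusted p = 0.0031). Tbkbp1, Nlrc5 and Tab2 were called in 8 of 8 fits with 1 library left out. Irf5 was called in 3 of them, where control 4, PUS10KO 3 or PUS10KO 4 was the one left out, and its adjusted p otherwise reached 0.0824. Irf3, the factor that TBK1 phosphorylates, had 33.0 ± 2.51 CPM in control and 29.9 ± 3.23 CPM in PUS10KO (log2 fold change -0.14, 95% interval -0.42 to 0.13), and was named after its values were seen. Ifnb1, the interferon beta gene, is not analysed here. By edgeR with the block 6 of the 27 rose and 5 fell (all genes, 19.1% and 19.9%).

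Among genes of nucleic acid clearance and editing 2 of 19 tested rose and none fell (edgeR; all genes, 5.9% and 7.11%). The other 17 did not pass, and the list median log2 fold change was -0.0041. At an unadjusted p under 0.05 edgeR gave 2 higher and 3 lower genes. DESeq2 called 2 as higher and 2 as lower (all genes, 9.09% and 10.3%). Limma voom called 2 as higher and 0 as lower (all genes, 6.01% and 6.93%). Pnpt1, a mitochondrial ribonuclease that degrades double-stranded RNA, rose from 63.4 ± 7.70 to 105 ± 26.6 CPM (log2 fold change 0.73, edgeR adjusted p = 0.0373). That call was kept only without PUS10KO 3 or PUS10KO 4 (adjusted p up to 0.0961). The cytidine deaminase gene Apobec3 had a log2 fold change of 1.36 but was not called once control 1 or 2 or PUS10KO 3 or 4 had been left out (edgeR adjusted p up to 0.0705). With the block 7 of the 19 rose and 4 fell (all genes, 19.1% and 19.9%).

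The integrated stress response list, which holds the pathway that PKR feeds, had 3 of 18 tested genes that fell and none that rose. The other 15 did not pass, and the list median log2 fold change was -0.17. Of all genes tested 7.11% fell and 5.9% rose (edgeR). At an unadjusted p under 0.05 edgeR gave 1 higher and 6 lower genes. DESeq2 called 1 as higher and 3 as lower (all genes, 9.09% and 10.3%). Limma voom called 0 as higher and 2 as lower (all genes, 6.01% and 6.93%). Eif2b2, a subunit of the exchange factor that eIF2alpha phosphorylation inhibits, fell from 54.3 ± 5.80 to 27.4 ± 3.44 CPM (log2 fold change -0.99, edgeR adjusted p = 0.00188) and was called in 8 of 8 fits with 1 library left out. Eif2b5, another subunit, had -0.39 (edgeR adjusted p = 0.0365), and Ddit3, a transcription factor induced by the response, had -1.22 (66.1 ± 28.6 to 28.4 ± 8.83 CPM, edgeR adjusted p = 0.0489). Both were called in 1 of 8 such fits, that without control 1 (adjusted p up to 0.117 and 0.124). With the block 1 of the 18 rose and 7 fell (all genes, 19.1% and 19.9%).

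Of 11 tested cell death partners of ZBP1, 1 rose and none fell (edgeR; all genes, 5.9% and 7.11%), and 10 did not pass. The list median log2 fold change was 0.26. At an unadjusted p under 0.05 edgeR gave 2 higher genes and 1 lower gene. DESeq2 called 1 as higher and 0 as lower (all genes, 9.09% and 10.3%). Limma voom also called 1 as higher and 0 as lower (all genes, 6.01% and 6.93%). Ripk3, the kinase that ZBP1 recruits in necroptosis, rose from 79.2 ± 5.35 to 112 ± 10.9 CPM (log2 fold change 0.50, edgeR adjusted p = 0.0215). It was not called once control 3 or any of PUS10KO 1 to 3 had been left out (edgeR adjusted p up to 0.0624). Mlkl, the membrane-rupturing effector, had 43.1 ± 5.43 CPM in control and 32.1 ± 7.42 CPM in PUS10KO (log2 fold change -0.43, edgeR adjusted p = 0.16, or 0.0083 with the replicate block), and was named after its values were seen. With the block 4 of the 11 rose and 2 fell (all genes, 19.1% and 19.9%).

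In the list of the interferon receptor, its signalling and early targets 5 of 20 tested genes rose, 1 fell and 14 did not pass. Among all genes tested 5.9% rose and 7.11% fell (edgeR). The list median log2 fold change was 1.35. Oasl2 (5.16) and Oas1a (4.95), of the oligoadenylate synthetase family, and Rtp4 (2.16) were among those that rose, and Ifit2, also an interferon-induced gene, fell (-0.80). Without control 2 or 3 the call of Rtp4 was lost (edgeR adjusted p up to 0.0567), and without control 3, control 4 or PUS10KO 1 that of Oas1a (up to 0.0642), whose family of near-identical copies makes its counts uncertain. Leaving out 1 library gave from 1 gene that rose (without control 3) to 9 (without control 1). With the block 16 of the 20 rose and 1 fell, where 19.1% of all genes rose and 19.9% fell.

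**Figure D5:**
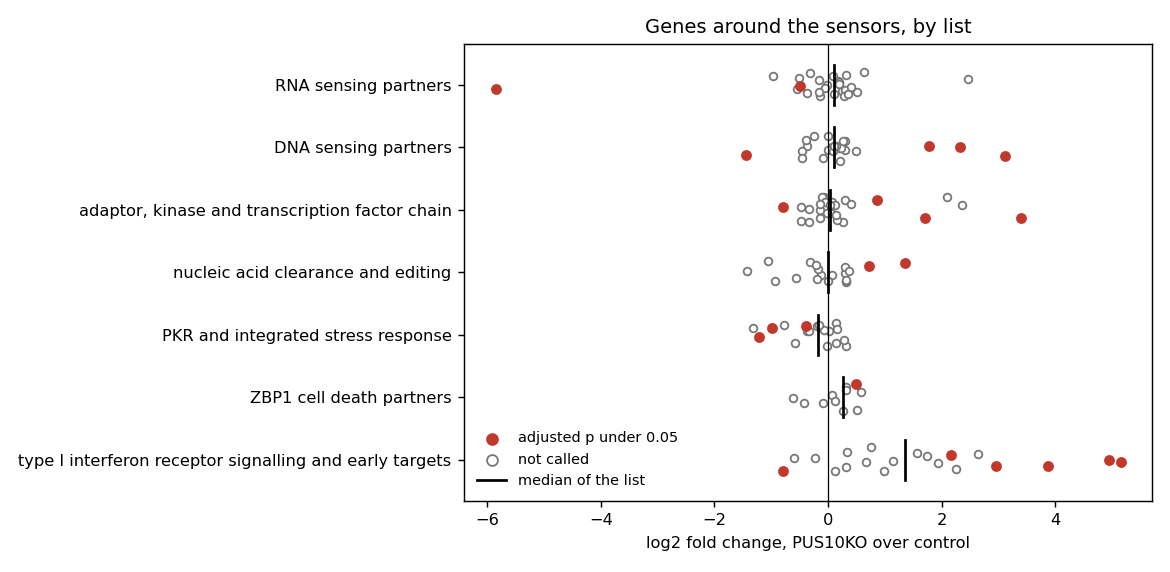
Log2 fold change of PUS10KO over control for the tested genes of each list around the sensors. Red points passed edgeR's test without the block, open points did not, and black bars are list medians. The interferon list has the highest median (1.35), and Nlrx1 (-5.86) is the point farthest to the left.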

How the data were processed

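The authors deposited raw counts, whole numbers of reads per gene with 1 column per library, from stranded total RNA libraries sequenced in paired-end mode, per the labels' protocols. Per the submitters' processing notes the tools were STAR 2.7.8a and DESeq2 and the build mm10. How reads were counted, whether strand was used, which annotation and which gene filter: not given in the sources used here. A normalized table of the same libraries was not used here. The 10 genes, the lists and the alternatives were chosen with earlier results of these data known.

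The tests ran on these counts with edgeR 4.0.16 under R 4.3.3 (filterByExpr, TMM, robust quasi-likelihood test with genotype as the only term, all 8 libraries) and Benjamini-Hochberg adjustment over 11909 genes. The SE is the log2 fold change divided by the square root of F. Alternatives were DESeq2 1.42.0, limma 3.58.1 (voom), DESeq2 size factors, no filter, the library number as a replicate block and leaving out each library. The test was tested on simulated data. Log2 CPM for pairs and correlations used an offset of 0.5 counts.

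The labels do not say what the library numbers stand for. Across genes, the deviation of a control library from its genotype's mean correlated with that of the PUS10KO library of the same number (r = 0.663, 0.691, 0.606 and 0.667), and every library correlated best with its own number. The highest r with another number was 0.292 for numbers 1 and 2 but 0.561 for numbers 3 and 4, so 3 and 4 are less clearly separated. Same-numbered libraries were treated as pairs, with the pairing read from the counts and not from the labels. No library was a repeat deposit of another within counting noise (chi-square over its degrees of freedom at least 17.9), which does not show that the libraries are independent samples.

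Positions and exon lengths are those of GENCODE M21 on GRCm38, and Sting1 was matched through its older symbol. The genes named are the 10 genes, Pus10, the Y-linked genes, up to 4 called genes of each list (those of lowest p), and for each of the 10 genes the genes most like it over the 8 libraries (2 by r, and 1 by r of deviations). Other genes are said to have been named after their values were seen, except markers and overlapping genes. One gene that this rule names and 1 motif searched are not reported here.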

Additional observations from a re-analysis of the deposited data

Results flagged for a closer look

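In 3 of 20 groups of 4 libraries (10 genes in each genotype) 1 library lay far from the others by Dixon's ratio of gap to range; chance flags about 1 group in 20. Eif2ak2 had 125 CPM in PUS10KO 1, where the next PUS10KO library had 70.7. Adar had 59.7 CPM in PUS10KO 1, where the next had 38.8. Mavs had 36.0 CPM in PUS10KO 4, where the next had 44.4. Without PUS10KO 1 the log2 fold change of Eif2ak2 was 0.19 and that of Adar 0.37.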

How the results depend on the processing

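The fold changes of the 10 genes kept their direction under all alternatives run. Over those single-gene comparisons 114 kept their side of the threshold, 10 lost the call and 6 gained it. The replicate block raised the counts most: 2273 of all genes rose and 2368 fell, 8 of the 10 genes rose, and 7 rose and 7 fell in RNA sensing, 6 and 4 in DNA sensing, 6 and 5 downstream of the adaptors, 7 and 4 in clearance and editing, 1 and 7 in the stress response, 4 and 2 among the ZBP1 partners, and 16 rose in the interferon list. DESeq2 called 1083 of all genes as higher, 2 as higher and 6 as lower in RNA sensing, 2 as lower downstream of the adaptors, 2 as lower in clearance, 1 as higher in the stress response and 11 as higher in the interferon list, which had 8 without the filter on low counts. Limma voom and DESeq2 size factors moved no such count by over 1.5 times.

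Leaving out 1 library gave 492 to 638 genes that rose and 520 to 728 that fell over all genes, and 2 to 4 of the 10 genes that rose, with 2 without control 3, PUS10KO 1 or PUS10KO 3. In RNA sensing it gave 0 to 3 that rose and 1 to 2 that fell, in DNA sensing 0 to 1 that fell, in clearance 0 to 1 that rose and 0 to 1 that fell, in the stress response 1 to 3 that fell, among the ZBP1 partners 0 to 1 each way, and in the interferon list 1 to 9 that rose. The cause was not tested. Of the 10 genes Zbp1 and Dhx58 had the lowest counts in control (56 and 123) and the widest 95% intervals. Their SE was 0.81 and 0.60 without the block and 0.28 and 0.21 with it.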
